A study of Mus musculus with 6 samples.

Results

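The genes described here are the 7 core genes of cytosolic DNA and RNA sensing, Cgas, Sting1, Ifih1, Dhx58, Mavs, Tbk1 and Irf3, taken by name out of 32875 genes with counts assigned to a gene symbol. Their RNA was measured in peritoneal macrophages (PMs) sorted from the peritoneal cavity as F4/80+ CD11b high cells, with 1 RNA-seq library for each mouse. The control group held 3 female (NZW x BALB/c)F1 mice, which do not develop autoimmunity, aged 33, 33 and 30 weeks. The diseased-BWF1 group held 3 female (NZB x NZW)F1 mice, a spontaneous lupus model, aged 31, 31 and 34 weeks, with antibodies to double-stranded DNA and proteinuria. Because 1 of the parental strains was not shared by the groups, an effect of strain and an effect of disease cannot be told apart. NZW was a parent of both groups, and the labels name no treatment.

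Cells carry sensors that detect DNA or RNA in the cytosol, where little free nucleic acid is normally found. cGAS (Cgas) binds double-stranded DNA and makes the messenger cGAMP, which activates STING (Sting1) on the endoplasmic reticulum, while RIG-I (Ddx58) and MDA5 (Ifih1) bind viral-type RNA and activate MAVS on mitochondria, with LGP2 (Dhx58) modulating MDA5. Both arms meet at the kinases TBK1 and IKKε (Ikbke), which phosphorylate the transcription factor IRF3 and switch on type I interferon, a cytokine linked to lupus.

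None of the 7 genes changed between the groups by the rule used throughout, an edgeR adjusted p under 0.05 with a fold change of at least 1.5. By edgeR, 2 of the 7 had an unadjusted p under 0.05, Cgas with a higher mean and Tbk1 with a lower mean in diseased-BWF1 mice. DESeq2 called 0 of the 7 as well. Of the 10502 genes tested, 1.22% were called, 0.400% higher and 0.819% lower. An unadjusted p under 0.05 was found for 13.2% of them, 5.62% higher and 7.57% lower, so with 1 of 7 in each direction nothing is read from this count. The 95% interval of the fold change still allows a 1.5-fold change in either direction for Dhx58 (0.653 to 2.05). Such a change is allowed only upward for Cgas (up to 2.12) and only downward for Sting1 (down to 0.549) and Tbk1 (down to 0.661). The intervals of Ifih1 (0.738 to 1.40), Mavs (0.813 to 1.43) and Irf3 (0.687 to 1.23) hold only smaller changes.

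Libraries held 3629901 to 5003360 counts, of which 89.1 to 93.0% fell on named genes, and control mouse 1 had the deepest library. A count of 0 allows at most 3 counts, or 0.652 to 0.889 CPM depending on the library, where CPM are counts scaled to a common library size. On the first principal component control mouse 3 lay at -47.8 and the other control mice at -17.1 and -19.7, while the diseased-BWF1 mice lay between 27.6 and 28.7. All 10 macrophage markers were tested and none was called, with summed levels of 38185 to 51605 CPM in control and 32264 to 37945 CPM in diseased-BWF1 PMs. These summed ranges did not overlap, by a narrow margin. Lyz2 alone held most of each sum, with means of 119968 and 87557 normalized counts (log2 fold change -0.46, edgeR adjusted p = 0.445). The sums are therefore not a measure of the markers as a set. Fitted log2 fold changes of the 10 ran from -1.10 for Cd68 (edgeR adjusted p = 0.0718) to 0.88 for Cd14 (edgeR adjusted p = 0.263). The study reports Cd68 among its downregulated genes. Summed B cell markers came to 5.43 to 7.18 CPM in control and 1.32 to 3.75 CPM in diseased-BWF1 PMs, and T cell markers to at most 4.07 CPM in any library. Dendritic cell markers summed to 8.17 to 14.1 CPM and those of NK cells, neutrophils, eosinophils and mast cells, and mesothelial cells to at most 6.74 CPM. Of these lists only 1 dendritic cell and 1 neutrophil marker passed the filter on low counts, so most of their genes were not tested. The defining genes Ly6g, Epx, Kit and Msln had 0 counts in all 6 libraries. Among monocyte markers, Ccr2, a chemokine receptor, had 2.30 to 10.8 normalized counts in control and 6.08 to 31.3 in diseased-BWF1 PMs and was not called (log2 fold change 1.43, edgeR adjusted p = 0.441), and its part in the results below was not tested. In bulk RNA, fewer cells of a type and less RNA per cell cannot be told apart.

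A pair of short windows is shown because Ifih1 and Ddx58 are sensor genes that also belong to the interferon-induced genes. Both come from the RefSeq promoter table of build GRCm38.p6, are written on the strand of the gene, and the capitals mark GAAA, any 2 bases and GAAA, a core of the interferon-stimulated response element, searched on both strands.
Ifih1, chr2:62646206-62646235, minus strand: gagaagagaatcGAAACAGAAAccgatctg
Ddx58, chr4:40239804-40239833, minus strand: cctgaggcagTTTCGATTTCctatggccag
In Ifih1 the match covers bases 33 to 42 after the start site, and in Ddx58, whose window spans the start site, it covers bases 3 to 12 and is read on the opposite strand. The letters occurred in the 300-base windows of 1079 of 27025 genes in that table (3.99%). Among the 7 sensing genes 5 had a window, and 1 of these 5, Ifih1, held a match, against 7 of 13 interferon-induced target genes (53.8%). Cgas, Mavs, Tbk1 and Irf3 held none of these letters in the window. A match is a description of the sequence and not a bound site.

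**Figure D1:**
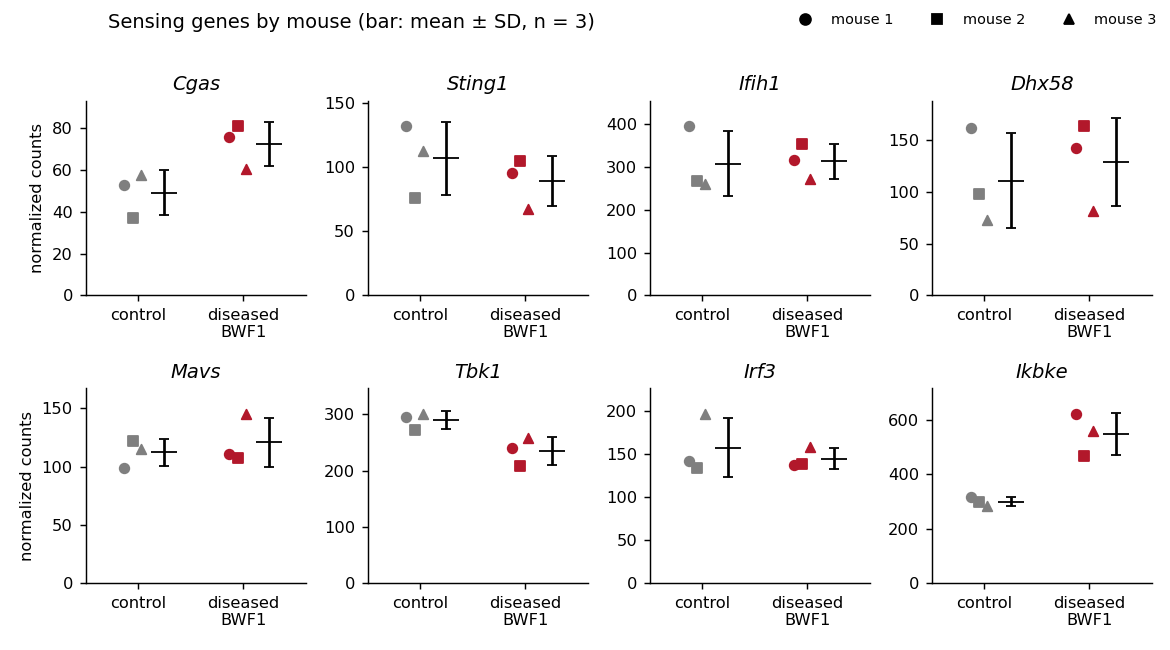
Normalized counts (counts divided by DESeq2 size factors, each axis starting at 0) of the 7 sensing genes and of Ikbke in each mouse; grey points are control, red points diseased-BWF1 mice, the shape is the mouse, and the black bar is the mean ± SD of 3 mice. Only in Cgas, Tbk1 and Ikbke did the groups not overlap, with control means of 49.1, 289.6 and 299.97 and diseased-BWF1 means of 72.4, 236 and 548.

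The DNA sensor Cgas had 53.0, 37.0 and 57.4 normalized counts in control mice 1, 2 and 3 and 75.5, 81.0 and 60.5 in diseased-BWF1 mice 1, 2 and 3. The lowest diseased-BWF1 mouse stood just above the highest control mouse, and the groups did not overlap on this scale, a pattern found in 20.8% of all tested genes, with 9.58% higher and 11.2% lower. The log2 fold change was 0.56 (SE 0.22, 95% interval 0.03 to 1.08), with an edgeR unadjusted p of 0.0414 and an edgeR adjusted p of 0.351. The exact two-sided permutation test of the normalized counts gave p = 0.1, the smallest value that 3 against 3 mice allow. Cgas (chromosome 9, 78430518 to 78443237) was read at only 36 to 80 raw counts per library, and in raw counts control mouse 1 (64) exceeded diseased-BWF1 mouse 3 (60).

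The RNA sensor Ifih1 had 396, 268 and 259.5 normalized counts in control mice 1 to 3 and 317, 353 and 271 in diseased-BWF1 mice 1 to 3. Control mouse 1 was the highest of all 6, and the groups overlapped fully. The group means were 308 ± 76.5 and 314 ± 41.2 (SD, n = 3), and the log2 fold change of 0.02 (SE 0.20, 95% interval -0.44 to 0.48) had an edgeR adjusted p of 0.980.

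Dhx58, the regulator that lacks the signalling domain of the other RNA sensors of its family, had 162, 97.7 and 73.5 normalized counts in control mice and 143, 164 and 81.7 in diseased-BWF1 mice. Its values spread over more than 2-fold inside each group, and control mouse 1 with diseased-BWF1 mice 1 and 2 stood above the other mice. Its log2 fold change was 0.21 (SE 0.35, 95% interval -0.61 to 1.03), with an edgeR adjusted p of 0.845. Ddx58, which encodes RIG-I and carries the second sequence above, had 333, 207 and 207 normalized counts in control and 301, 340.3 and 249 in diseased-BWF1 mice. Control mouse 1 was again above the other control mice, and the log2 fold change was 0.25 (edgeR adjusted p = 0.696).

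The adaptor Sting1 (chromosome 18, 35733678 to 35740554) had 132, 76.1 and 113 normalized counts in control and 95.4, 105 and 67.6 in diseased-BWF1 mice. The groups overlapped, with means of 107 ± 28.5 and 89.4 ± 19.6 (SD, n = 3). The log2 fold change of -0.26 (SE 0.26, 95% interval -0.87 to 0.34) had an edgeR adjusted p of 0.718, and it lay between -0.45 and -0.083 when 1 mouse was left out.

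Mavs, the mitochondrial adaptor of the RNA arm, had 99.3, 122 and 115 normalized counts in control and 110.5, 107 and 145 in diseased-BWF1 mice. Diseased-BWF1 mouse 3 was highest and control mouse 1 lowest, and the groups overlapped. The log2 fold change was 0.11 (SE 0.17, 95% interval -0.30 to 0.51), with an edgeR adjusted p of 0.839.

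The kinase gene Tbk1 (chromosome 10, 121546455 to 121586794) had 296, 272 and 301 normalized counts in control mice and 239.8, 209 and 258 in diseased-BWF1 mice. Each diseased-BWF1 mouse was below each control mouse. Tbk1 had a log2 fold change of -0.30 (SE 0.13, 95% interval -0.60 to -0.01), with an edgeR unadjusted p of 0.0470, an edgeR adjusted p of 0.369 and an exact permutation p of 0.1. Tbk1 had 1 transcript record, so its value does not depend on how counts were divided between records.

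The transcription factor gene Irf3 (chromosome 7, 44997648 to 45002848) had 141, 134 and 196 normalized counts in control and 137, 139 and 158 in diseased-BWF1 mice. Control mouse 3 stood above the other mice, which lay within 134 to 158. The log2 fold change was -0.12 (SE 0.18, 95% interval -0.54 to 0.30), with an edgeR adjusted p of 0.824, and it was 0.07 without control mouse 3.

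**Figure D2:**
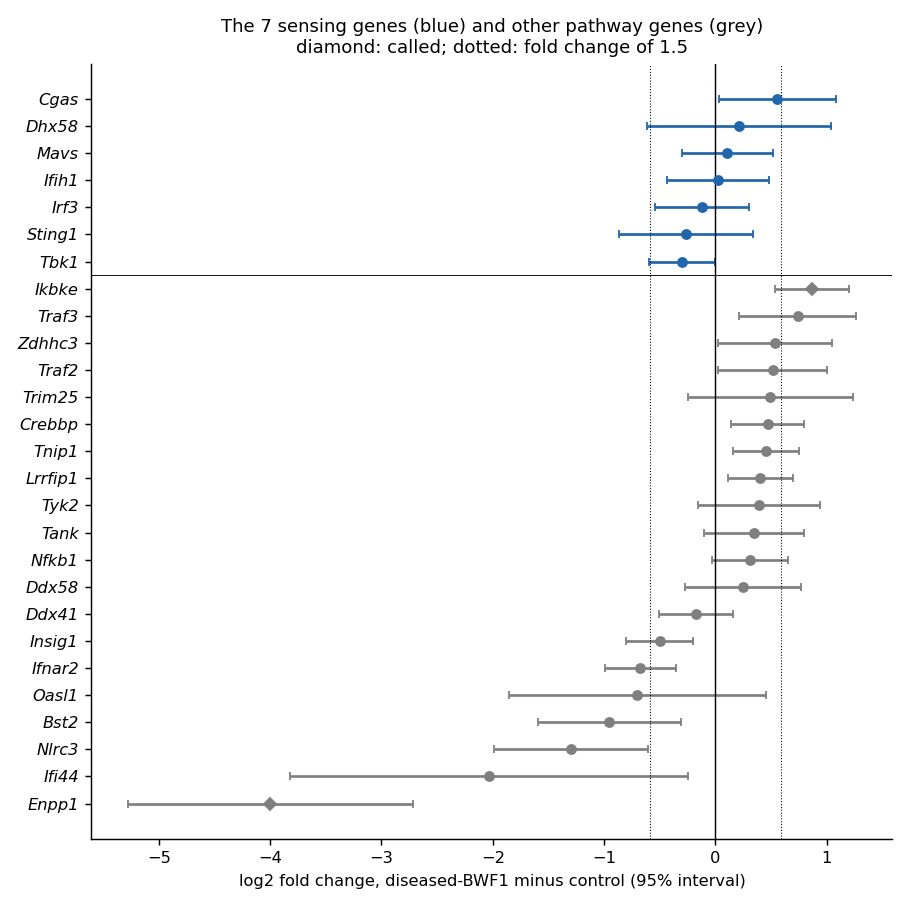
Log2 fold changes of diseased-BWF1 against control PMs with 95% intervals from edgeR, for the 7 sensing genes (blue, above the line) and the other pathway genes named here (grey); diamonds are called genes and dotted lines mark a fold change of 1.5. Ikbke at 0.87 and Enpp1, with an interval of -5.28 to -2.72, are the called genes, and of the 7 only the intervals of Cgas and Tbk1 leave out 0.

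The partner kinase of TBK1 was the one gene called higher in the wider pathway. Ikbke had 317, 299 and 284 normalized counts in control and 621, 466 and 558 in diseased-BWF1 mice, with no overlap. It rose by a log2 fold change of 0.87 (SE 0.14, 95% interval 0.53 to 1.20) with an edgeR adjusted p of 0.0437, 1.82-fold. Leaving out any single mouse took the edgeR adjusted p to between 0.0586 and 0.167, and the fold change to between 0.76 and 0.98 on the log2 scale. With age as a covariate the edgeR adjusted p was 0.0710. The limma-voom adjusted p was 0.0531 and the DESeq2 adjusted p was 0.000185. The study's own list of genes higher in these samples holds Ikbke, so its call is not independent of that list. Ikbke overlaps 2 predicted genes, Gm28913 and Gm51644, and how reads shared between such genes were assigned is not given in the sources used here.

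Ikbke and Tbk1 went in opposite directions by their fitted values, so the counts of Ikbke per count of Tbk1 were compared within each library, a ratio chosen after their values were seen. It was 1.07, 1.10 and 0.943 in control mice and 2.59, 2.23 and 2.16 in diseased-BWF1 mice. The means were 1.04 ± 0.0843 and 2.33 ± 0.230 (SD, n = 3), a 2.24-fold ratio of the geometric means, given as a description with no test, since each gene alone already separated the groups. The ratio needs no scaling between libraries. On the log2 scale the difference was 1.16, and it was 1.07 with curated mRNA records alone.

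**Figure D3:**
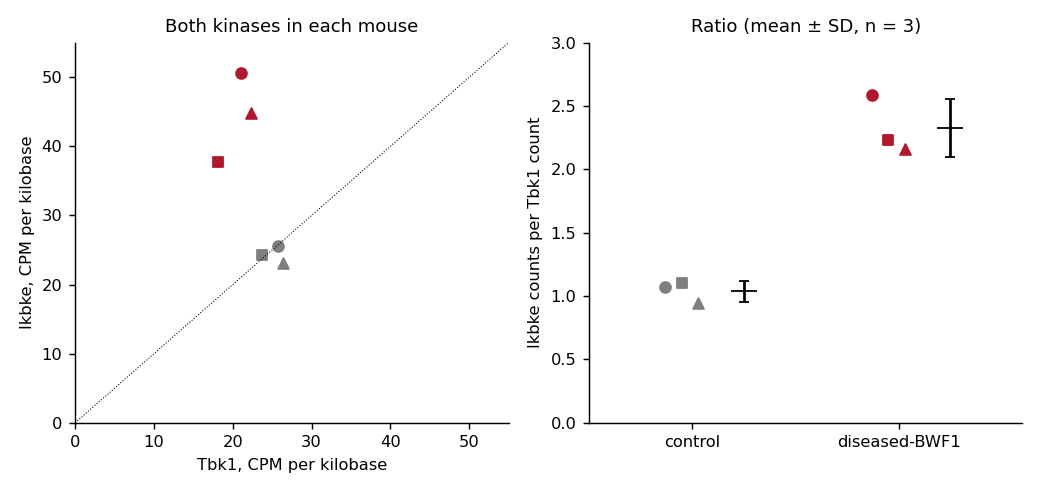
Left, level per length (CPM per kilobase of transcript) of Ikbke against Tbk1 in each mouse, with a dotted line of equal level; right, the ratio of Ikbke to Tbk1 counts, with mean ± SD of 3 mice; grey is control, red diseased-BWF1, and circle, square and triangle are mice 1, 2 and 3. In the left panel control mice sit near the line and diseased-BWF1 mice above it. In the right panel the count ratios are 0.943 to 1.10 in control and 2.16 to 2.59 in diseased-BWF1 mice.

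**Figure D4:**
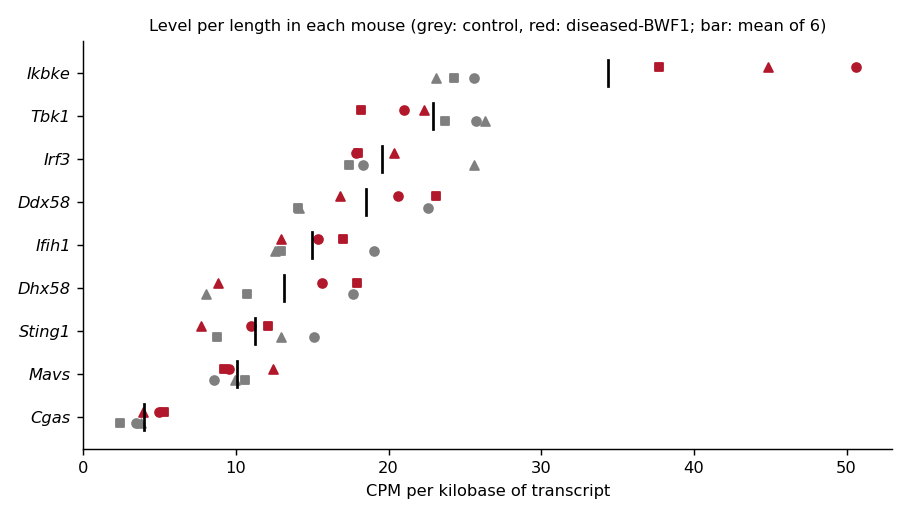
CPM per kilobase of the longest paired transcript for the 7 sensing genes, Ddx58 and Ikbke in each mouse, ordered by the mean of 6 mice (black bar); grey is control, red diseased-BWF1, and circle, square and triangle are mice 1, 2 and 3. Tbk1 (22.9) and Irf3 (19.6) are the highest of the 7 and Cgas (3.95) the lowest.

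Per kilobase of transcript, the level of Tbk1 averaged 22.9 CPM over the 6 mice (range 18.2 to 26.3) and that of Irf3 19.6 (17.4 to 25.6). Ifih1 followed at 15.0 (12.6 to 19.0), Dhx58 at 13.1 (8.06 to 17.9), Sting1 at 11.3 (7.68 to 15.1) and Mavs at 10.05 (8.54 to 12.4). Cgas was lowest at 3.95 (2.41 to 5.27). The ranges of neighbours in this order overlapped except those of Mavs and Cgas, so Cgas alone stood apart. The place of Ifih1 depends on its transcript: with the shortest paired transcript of 3616 bases instead of 5470 bases its level was 22.7. Lengths were those of transcripts paired with curated mRNA records. These records held only 17.5 to 42.0% of the Irf3 counts and 16.4 to 67.3% of the Sting1 counts of a library. The places of Irf3 and Sting1 are therefore uncertain as well.

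The 7 genes were set in lists of 138 pathway genes, of which 129 were tested. In these, 1 gene was called higher (Ikbke) and 1 was called lower (Enpp1), beside shares of 0.400% higher and 0.819% lower over all tested genes. Nothing is read from this count. The median log2 fold change was 0.01, against 0.00531 over all tested genes. An unadjusted p under 0.05 was found for 16 of 129 (8 higher and 8 lower), and the groups did not overlap in 19 of them, 11 higher and 8 lower, beside shares of 13.2% and 20.8% over all genes.

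Enpp1, which encodes the ectoenzyme that degrades extracellular cGAMP, had 105, 149 and 115 normalized counts in control and 6.61, 15.2 and 1.01 in diseased-BWF1 mice. It fell to 0.0625 of the control level (95% interval of the log2 fold change -5.28 to -2.72, SE 0.55) with an edgeR adjusted p of 0.0263. The diseased-BWF1 libraries held only 7, 15 and 1 raw counts of Enpp1, so the exact size of the fall is uncertain. The DESeq2 adjusted p was 8.65e-11. The edgeR adjusted p was 0.0735, 0.101 and 0.0637 without control mouse 1, 2 and 3 and 0.115 without diseased-BWF1 mouse 1, while the log2 fold change stayed between -4.94 and -3.49. The study's list of lower genes holds Enpp1 as well. Zdhhc3, which encodes a palmitoyl transferase that acts on STING, had means of 42.6 and 62.0 normalized counts (log2 fold change 0.53, edgeR adjusted p = 0.358).

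Of the 9 DNA sensors tested none was called, 4 had fitted changes above 0 and 5 below. Hnrnpa2b1, which encodes a nuclear ribonucleoprotein, had means of 1631 ± 271 and 1675 ± 249.8 normalized counts (SD, n = 3; log2 fold change 0.03, edgeR adjusted p = 0.958). It was not chosen by the rule for named genes and is given because the study's own list of higher genes holds it. With sums per gene neither edgeR nor DESeq2 called Hnrnpa2b1 here, so the study's call was not reproduced. The cause of this difference was not tested. Lrrfip1 had means of 134 ± 6.64 and 177 ± 12.2 normalized counts (SD, n = 3; log2 fold change 0.40, edgeR adjusted p = 0.215), and Ddx41, a helicase, of 207 and 184 (-0.18, edgeR adjusted p = 0.655). Of the 14 RNA sensors none was called either, with 11 fitted changes above 0 and 3 below. Their median log2 fold change was only 0.03, so nothing is read from this split. Oasl1, of the OAS family, had means of 25.5 and 15.5 normalized counts (log2 fold change -0.70, edgeR adjusted p = 0.601). Control mouse 3 had 43.6 normalized counts of Oasl1 and the other control mice 21.5 and 11.3, and without control mouse 3 the log2 fold change was -0.096.

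Among 12 cofactors and ubiquitin ligases none was called. Insig1, an endoplasmic reticulum protein gene, had means of 370 and 262 normalized counts (log2 fold change -0.50, edgeR adjusted p = 0.145). Trim25, which encodes a ligase acting on RIG-I, had 832, 1854 and 998 normalized counts in diseased-BWF1 mice against 700.5 to 1076 in control, so diseased-BWF1 mouse 2 stood far above the others of its group. Of the 14 genes around MAVS, Traf3 had means of 124 and 208 (0.74, edgeR adjusted p = 0.211) and Traf2 of 53.0 and 76.2 (0.51, edgeR adjusted p = 0.351), neither called, with no overlap between groups in 3 of the 14, beside 20.8% over all genes.

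Of 11 kinases and kinase adaptors only Ikbke was called; Tank, a scaffold of TBK1 and IKKε, had means of 120 ± 24.6 and 153 ± 20.7 normalized counts (log2 fold change 0.34, edgeR adjusted p = 0.508). Of 12 transcription factors and coactivators none was called. Crebbp, a coactivator of IRF3, had means of 313 and 434 (0.47, edgeR adjusted p = 0.207), and Nfkb1 of 462 and 575 (0.31, edgeR adjusted p = 0.424). Of 20 negative regulators none was called. Nlrc3, which restrains STING signalling, had 155, 158 and 78.1 normalized counts in control and 63.3, 45.6 and 50.4 in diseased-BWF1 mice, without overlap (log2 fold change -1.30, edgeR adjusted p = 0.103, DESeq2 adjusted p = 0.0125). Tnip1, an inhibitor of NF-κB signalling, had means of 113 ± 7.28 and 154 ± 0.928 (0.45, edgeR adjusted p = 0.176).

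Downstream, Ifnb1, which encodes interferon-β, had 0 counts in all 6 libraries, as did Ifna1, Ifna2 and Ifna4. Ifnar2, a chain of the type I interferon receptor, had 832, 804 and 926 normalized counts in control and 565, 568 and 474 in diseased-BWF1 mice, with no overlap. Its log2 fold change was -0.68 (SE 0.14, edgeR adjusted p = 0.0730, DESeq2 adjusted p = 0.00156), and the study's list of lower genes holds it too. Tyk2, the receptor's kinase, had means of 286 and 376 (0.39, edgeR adjusted p = 0.538).

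Of 20 interferon-induced target genes 17 were tested and none was called by edgeR, while 2 had an unadjusted p under 0.05, both lower, beside 13.2% of all genes in either direction and 7.57% lower, so nothing is read from this count. DESeq2 called none of them. The 2 were Bst2, with means of 312 and 161 normalized counts (log2 fold change -0.96, edgeR adjusted p = 0.187), and Ifi44. Ifi44 had 308, 78.2 and 54.0 normalized counts in control and 45.3, 51.6 and 11.1 in diseased-BWF1 mice (-2.03, edgeR adjusted p = 0.314), and without control mouse 1 the log2 fold change was -0.88. The 20 targets summed to 1134, 560.4 and 507 CPM in control and 721, 724 and 438 CPM in diseased-BWF1 mice. Control mouse 1 was highest and diseased-BWF1 mouse 3 lowest, and the groups overlapped.

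**Figure D5:**
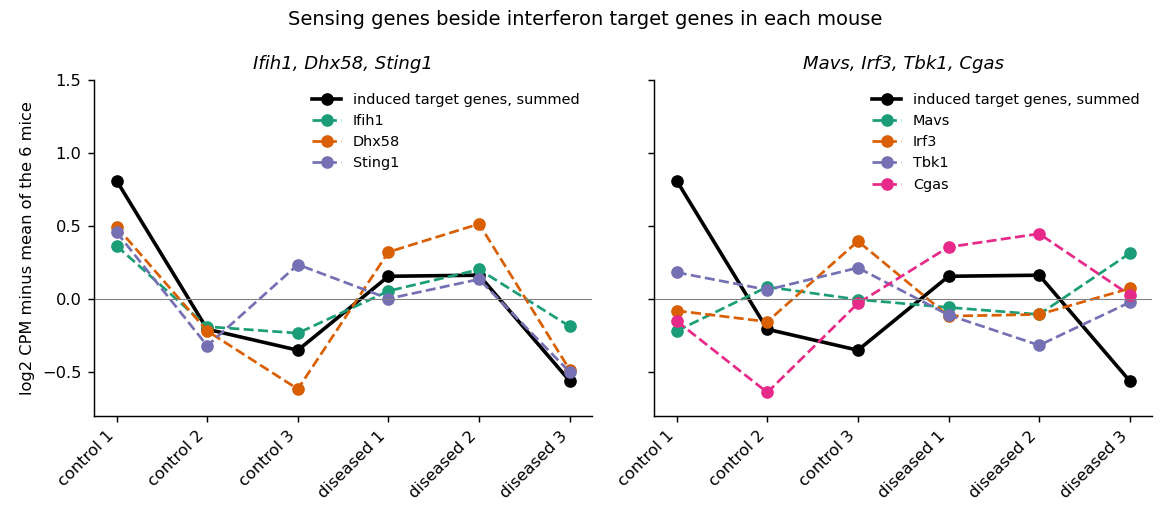
Log2 CPM of the sensing genes (dashed) and log2 of the summed CPM of the interferon-induced target genes (black), each minus its own mean over the 6 mice; lines only guide the eye, since mice have no order. Ifih1 and Dhx58 follow the black line, with Pearson's r of 0.94 and 0.87, and Mavs runs against it, with r of -0.89.

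The log2 sum of the target genes was compared with the log2 CPM of each sensing gene across the 6 mice, with tests for either direction. For Ifih1 Pearson's r was 0.94 (exact permutation p = 0.0167, adjusted over 7 relations 0.0583) and Spearman's rho 0.83 (exact permutation p = 0.0583, adjusted 0.136). For Dhx58 r was 0.87 (exact permutation p = 0.0250, adjusted 0.0583) and rho 0.89 (exact permutation p = 0.0333, adjusted 0.117). For Mavs r was -0.89 (exact permutation p = 0.00833, adjusted 0.0583) and rho -0.94 (exact permutation p = 0.0167, adjusted 0.117). No relation passed 0.05 after adjustment. Without the 2 mice farthest from the median sum, control mouse 1 and diseased-BWF1 mouse 3, a check added after the data were seen, r over 4 mice was 0.95 for Ifih1, 0.99 for Dhx58, -0.75 for Mavs, -0.93 for Tbk1, 0.72 for Cgas and -0.69 for Irf3. Since genes with r near 0 over 6 mice reach values of this size over 4, nothing is read from these. For Sting1 r was 0.76 (exact permutation p = 0.0639; rho 0.66, exact permutation p = 0.175) and 0.05 without those 2 mice. Irf3 had r of -0.49, Cgas of 0.14 and Tbk1 of 0.01 (exact permutation p = 0.294, 0.822 and 0.925), with rho of -0.37, 0.09 and -0.20 (exact permutation p = 0.497, 0.919 and 0.714). The points share libraries and groups, groups of 3 are too small for a value within each, and control mouse 1 had the deepest library.

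The genes whose pattern over the 6 libraries was most like each sensor gene were taken by the smallest root mean square difference of centred log2 CPM among 6181 genes. For Ifih1 they were Sp110 (0.0548) and Trex1 (0.0698), for Dhx58 Phf11d (0.0814) and Tex14 (0.104), and for Sting1 Ube2l6 (0.0698) and Gm11127 (0.0944). For Irf3 they were Dnajb6 (0.0262) and Ciao3 (0.0474), for Tbk1 Mpp1 (0.0413) and Rab5c (0.0435), for Mavs Fndc3a (0.0598) and Rsbn1l (0.0665), and for Cgas 1600014C10Rik (0.0743) and Arhgef18 (0.126). Trex1 encodes an exonuclease that removes cytosolic DNA, and it was not in the pathway lists used here.

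Counts were deposited per transcript record, and their division between records of 1 gene was uneven between mice. For Cgas the noncoding record held 23 of the 36 counts in control mouse 2 and 0 in the other 5 mice. For Sting1 the curated mRNA records held 16.4 to 67.3% of the counts of a library, for Irf3 17.5 to 42.0%, and for Ifih1 50.9 to 85.4%. Sums per gene were therefore used throughout, and no comparison between isoforms was drawn. Ifih1 (chromosome 2, 62595618 to 62646255) overlaps Gm39839 and Dhx58 (chromosome 11, 100694884 to 100704271) overlaps Gm38483, while Mavs (chromosome 2, 131234063 to 131248025) and the other 4 overlap no annotated gene in GRCm38.p6.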

How the data were processed

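PMs of 6 mice were sequenced, 1 stranded paired-end mRNA library each. The authors deposited whole-number counts per RefSeq transcript record (107193 records); the submitters' processing notes name Salmon 0.8.0, DESeq2 and build GRCm38.p6 without a role, so the counts may be rounded estimates, which would make the division between transcripts of 1 gene uncertain. How strand was used is not given in the sources used here. Records were matched to genes by accession (45749 with the same version, 40709 with another version, 20735 to no gene, left out of library sizes) and summed per gene.

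Genes were filtered with filterByExpr, leaving 10502, and tested with edgeR 4.0.16 quasi-likelihood and TMM in R 4.3.3, with Benjamini-Hochberg adjustment over all of them. A call needed an adjusted p under 0.05 and a fold of at least 1.5. Normalized counts were divided by DESeq2 1.42.0 size factors. Alternatives were DESeq2, limma-voom (limma 3.58.1), other scalings and filters, a replicate block, age, record choice and leaving out each mouse. The scripts were tested on simulated data. P-values of single values came from exact permutation. Libraries differed beyond counting noise. Levels per length used GENCODE vM21 transcripts. The genes and lists were chosen with earlier results of these data known. The genes named were the 7 genes, every called pathway gene, the 2 with the smallest p in each list, Ddx58, Ikbke and Ifnb1, and the 2 nearest patterns per gene. Of 139 listed genes 138 were matched. Some genes that this rule or the marker lists cover are not reported here.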

Additional observations from a re-analysis of the deposited data

How the results depend on the processing

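None of the 7 sensing genes was called under any of 15 alternatives each, and the smallest edgeR adjusted p among them was 0.301, for Cgas with age as a covariate. Cgas kept a log2 fold change of 0.39 to 0.81 and Tbk1 of -0.37 to -0.22. Near 0 the sign was not fixed: leaving out 1 mouse gave -0.084 to 0.24 for Ifih1, -0.0094 to 0.59 for Dhx58, -0.040 to 0.19 for Mavs and -0.22 to 0.071 for Irf3. Sting1 stayed below 0, at -0.45 to -0.083. Ifih1 was below 0 without control mouse 2 (-0.064), control mouse 3 (-0.084) or diseased-BWF1 mouse 2 (-0.066). Irf3 gave 0.20 with curated mRNA records alone. With each record on its own, Irf3 gave 0.19, 0.11 and 0.17 for 3 of its records, Sting1 0.68 for 1 and Ifih1 -0.12 for 1; the cause was not tested.

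Counts of called genes moved more, from 42 higher and 86 lower: DESeq2 gave 127 and 242, no filter 89 and 170, at least 10 counts in every library 27 and 57, curated mRNA records 9 and 7, single records 2 and 0, and age 53 lower. Leaving out 1 mouse gave 11 to 26 higher and 10 to 30 lower. In the pathway lists the 1 higher gene became 0 with limma-voom, age, curated mRNA records, single records or any mouse left out (0 to 0). The 1 lower gene became 3 with DESeq2, 2 with no filter, 0 with at least 10 counts in every library, which removes Enpp1, 0 with curated mRNA records and single records, and 0 to 1 with 1 mouse left out. Same-numbered mice are different animals, and their deviations correlated at 0.118, 0.0055 and 0.157. For control and diseased-BWF1 mice of different number the values ran from -0.144 to 0.0573. Whether same-numbered mice belong together was not tested. A replicate block gave 18 higher and 20 lower, with 0 and 0 in the pathway lists. With it the log2 fold changes were 0.56 for Cgas and -0.30 for Tbk1. The edgeR adjusted p with the block was 0.0903 for Ikbke and 0.0564 for Enpp1. Depth limits Cgas most, at 36 to 80 counts per library.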
